A study of Mus musculus with 4 samples.

Results

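Readers are the proteins that bind N6-methyladenosine (m6A), the methyl mark on adenosines of messenger RNA, or whose binding to RNA depends on it. The sites described here lie within the genes that encode them. The readers were 10 genes chosen by name and family: 5 with a YTH domain (Ythdc1, Ythdc2, Ythdf1, Ythdf2 and Ythdf3), 3 of the IGF2BP family (Igf2bp1, Igf2bp2 and Igf2bp3) and 2 nuclear hnRNP genes (Hnrnpa2b1 and Hnrnpc). Their sites were the entries of 2 deposited site lists whose gene name was one of these symbols, which gave 15 of the 6038 sites of list 1 and 10 of the 8246 sites of list 2. All of the 10 genes were looked for, 8 had at least 1 site, and Ythdf1 and Igf2bp3 had none in either list.

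The data are from MeRIP-seq, an assay that compares RNA fragments enriched by an anti-m6A antibody (IP) with the same fragments before enrichment (input). Epidermal keratinocytes were taken at postnatal day 0 from untreated control mice with the genotype K14Cre, Mettl14 F/+, so that the controls also carried the Cre driven by the keratin 14 promoter and 1 floxed allele of Mettl14, the RNA-binding subunit of the m6A methyltransferase. There were 2 input and 2 IP libraries, and the labels give neither the number of animals behind a library nor the libraries behind a list. No mutant group belongs to these libraries, so the comparisons are between the lists and between genes.

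YTH domains hold a pocket that binds the methylated adenosine directly. YTHDC1 acts in the nucleus on splicing and export of methylated RNA, YTHDF2 recruits the CCR4-NOT deadenylase and leads bound mRNA to decay, and the IGF2BP proteins are known for stabilising their target mRNAs. HNRNPC and HNRNPA2B1 are nuclear RNA-packaging and splicing proteins whose binding to some RNAs depends on m6A, in the case of HNRNPC through a change in RNA structure.

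For each site the lists give a fold enrichment of IP over input, a score (−10 log10 of the p-value, with many sites tied at 3100) and a false discovery rate (FDR), all of them the authors' values. Over all sites the median fold was 11.6 in list 1 and 11.9 in list 2, and the FDR was 100% at 59.2% and 51.5% of sites and nowhere below 51.2%. Read counts per library are not part of the lists, so the depth is unknown and no site could be tested against a spread between replicates. Among overlapping sites, some low folds recurred exactly in many genes of the same list, and the reason for this was not tested. A high fold can come from a strong IP signal or from a very low input, and the lists do not tell these apart. A transcript that is hardly expressed cannot show a site, and the lists hold no expression values. Of 6 keratinocyte markers, Trp63 and Dsp had overlapping sites, Krt5 had a site in list 1, and Krt14, Krt1 and Krt10 had none, which says nothing of their expression. Positions are on GRCm38 and counted from 1, and exon, intron and UTR annotation was not used here.

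**Figure D1:**
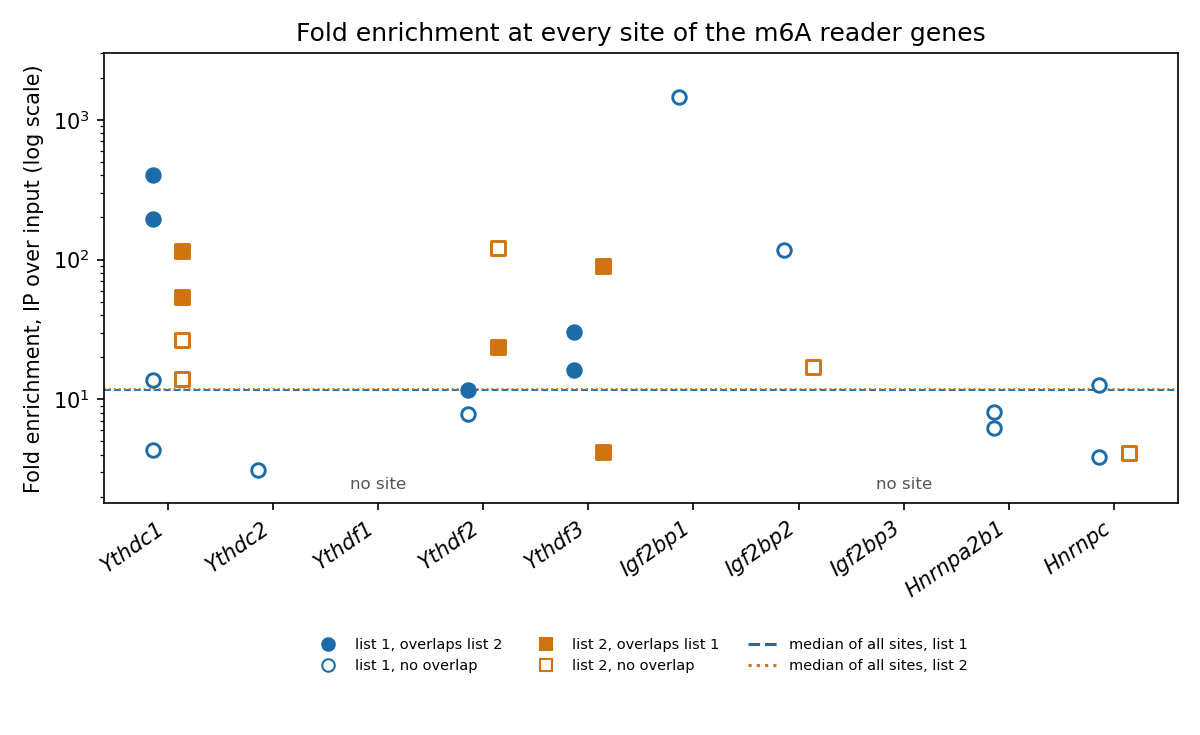
Authors' fold enrichment (log axis) at each of the 15 reader sites of list 1 (circles) and the 10 of list 2 (squares), by gene; filled symbols overlap a site of the other list and dashed or dotted lines mark the medians of all sites. The Igf2bp1 site of list 1 is the highest at 1460.05, filled symbols are found in Ythdc1, Ythdf2 and Ythdf3, and 2 genes have no site.

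Ythdc1, the gene of the nuclear reader, had the most sites, with 4 in each list. In list 1 as many or more were found in 3.63% of genes, and in list 2 in 6.82%. Its strongest site lay near the 3′ end of the gene, on the plus strand at chr5:86835684-86836059 in list 1, with a fold of 399, and at chr5:86835684-86836227 in list 2, with a fold of 115.28. Both sites began at the same base, both stood at the tied score of 3100, and the site of list 1 lay wholly within that of list 2, where it made up 69.1% of the bases. They ended 600 and 432 bases before the 3′ end of the annotated gene, which spans 32680 bases.

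A second Ythdc1 site had the same start and end in both lists. It covered 51 bases at chr5:86833592-86833642, and the fold was 194.79 in list 1 and 53.59 in list 2. Such identical intervals made up 31.9% of the 2202 pairs of overlapping sites in the whole data, so an exact match was common.

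The other Ythdc1 sites lay further upstream and did not overlap. List 1 held one at chr5:86815695-86815730 (fold 4.32, FDR 100%) and one at chr5:86816907-86817333 (fold 13.85, FDR 62.7%). List 2 held one at chr5:86816464-86816792 (fold 26.72, FDR 69.7%) and one at chr5:86821252-86821346 (fold 13.91, FDR 100%). The sites at 86816907 in list 1 and 86816464 in list 2 were 114 bases apart. Ranked by the highest fold per gene, Ythdc1 was number 204 of 4187 genes in list 1 and number 728 of 5045 in list 2. Each gene was also represented by a single overlapping site, the one whose lower fold of the 2 lists was highest. By the distance in log2 fold between these sites, and leaving out any further sites of a gene, the nearest to Ythdc1 among 1800 other genes were Robo1 (442.9 and 90.85), Fbxw7 (472.27 and 92.44) and Tanc2 (368.2 and 150.91).

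Ythdc2, which encodes a YTH protein with an RNA helicase domain known from meiosis in germ cells, had 1 site, in list 1. It covered 38 bases at chr18:44885289-44885326, where the fold was 3.13 and the score 24.45. This was the weakest of the 25 reader sites by fold and by score, its FDR was 100%, and 7.55% of genes in list 1 had a highest fold at or below it. List 2 had no site in the gene.

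The cytoplasmic readers Ythdf2 and Ythdf3 had 2 sites each in both lists, while their paralog Ythdf1 had none. In Ythdf3 both sites were shared. The first lay at chr3:16204734-16205147 in list 1, with a fold of 30.52, and at chr3:16204745-16205304 in list 2, with a fold of 89.67, and both stood at the tied score of 3100. The second lay at chr3:16214003-16214471 in list 1 (fold 16.2, FDR 99.96%) and at chr3:16213999-16214319 in list 2 (fold 4.21, FDR 100%). The lists thus differed in opposite directions at the sites of this gene, with the first higher in list 2 and the second higher in list 1. The score of the second site in list 2 was 46.8, a p-value above 1e-05, and it was the only reader site of that list short of this value.

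Ythdf2, on the minus strand, had 1 overlapping pair of sites. It lay at chr4:132204842-132205564 in list 1, where the fold was 11.72 (FDR 100%), and at chr4:132205097-132205593 in list 2, where it was 23.63 (FDR 59.5%). The 468 shared bases were 64.7% of the former and 94.2% of the latter site. A further site of list 1 at chr4:132204132-132204552 (fold 7.8) was close by. The strongest Ythdf2 site was one of 80 bases in list 2 at chr4:132210752-132210831, with a fold of 120.5, and it lay 1425 bases from the 5′ end of the gene with no counterpart in list 1. The annotated span of Ythdf1, at chromosome 2 from 180904377 to 180920936, held no site under any gene name.

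**Figure D2:**
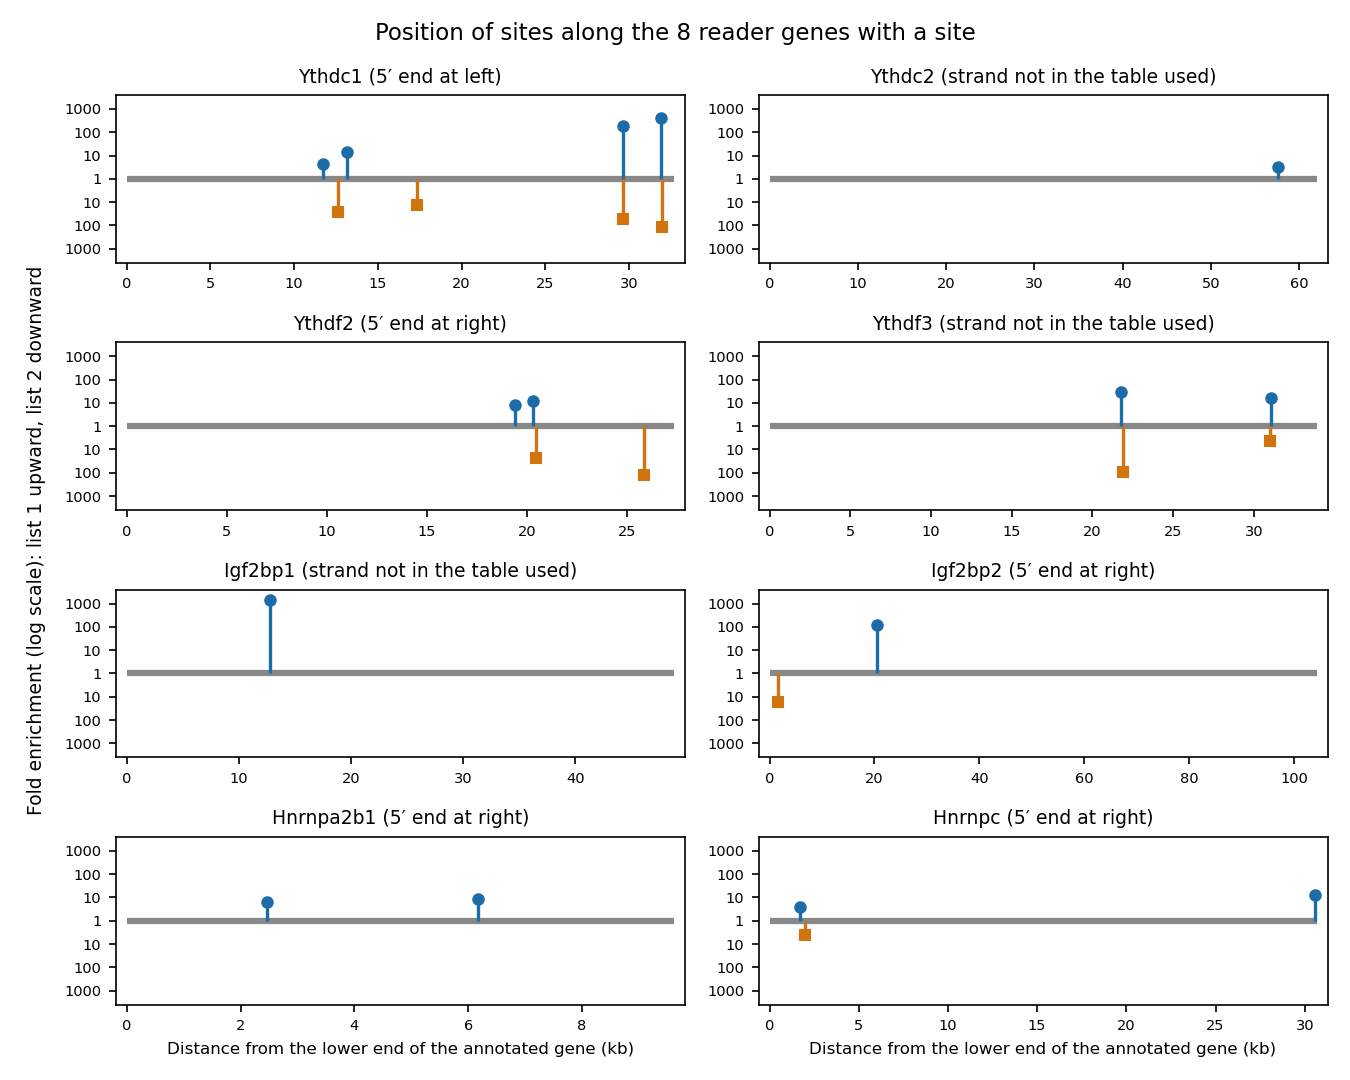
Sites along the 8 reader genes with a site: distance from the lower end of the annotated gene in kb (horizontal) against the authors' fold enrichment on a log scale, with list 1 upward (circles) and list 2 downward (squares). Symbols stand at the middle of a site; those of Ythdc1 and Ythdf3 mirror each other at 2 places, that of Ythdf2 at 1, and those of Igf2bp2 lie 18598 bases apart.

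The highest fold of any reader was in an IGF2BP gene, without a counterpart in the other list. Igf2bp1 had 1 site, in list 1, at chr11:95969849-95969984, with a fold of 1460.05, a score of 3100 and an FDR of 55.8%. By its highest fold the gene was number 41 of 4187 in list 1. Whether the input at this site was very low was not tested, so the fold and the rank are no measure of the extent of methylation. The microRNA gene Mir3063, which lies within Igf2bp1, ended 6465 bases below this site, so the site did not cover it. In Igf2bp2, which is on the minus strand, each list had 1 site and these were far apart. The site of list 1 covered 123 bases at chr16:22079484-22079606 (fold 116.74, FDR 55.8%), 20475 bases from the 3′ end. In list 2 the site covered 638 bases at chr16:22060248-22060885 (fold 17.13, FDR 83.6%), 1239 bases from the 3′ end. Igf2bp3 had no site, and none under another gene name lay within its span at chromosome 6 from 49085218 to 49215469.

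The hnRNP genes had no overlapping site, and their folds ran from 3.89 to 12.61, of which the highest was above the median of all sites. In Hnrnpa2b1, on the minus strand, list 1 held a site of 675 bases at chr6:51462565-51463239 (fold 6.24, FDR 100%) and one of 211 bases at chr6:51466495-51466705 (fold 8.17, FDR 64.4%), and list 2 held none. Hnrnpc had a site in each list close to its 3′ end, at chr14:52074962-52075160 in list 1 (fold 3.89) and at chr14:52075255-52075436 in list 2 (fold 4.1). These sites were 94 bases apart, and the FDR was 100% at both. Genes of this family have processed copies in the genome, and whether reads from such copies were assigned to them is not known, so the hnRNP values are uncertain.

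A second Hnrnpc site of list 1, at chr14:52103889-52104028 (fold 12.61, score 612.58, FDR 100%), lay wholly within the annotated gene, 11 bases from its 5′ end, and covered the start that the RefSeq promoter table gives for Hnrnpc, which lies further inside the gene than that end. Entries of this table (GRCm38.p6), which run from 250 bases before to 50 bases from a start on, were matched for 7 of the 10 readers, and in these genes no other site reached such a window. Over all genes, 4.62% of the sites of list 1 and 4.09% of the sites of list 2 touched a window of their own gene. The 30 bases around the Hnrnpc start of this table are shown because the site covers them from the fourth base on, beside those of Ythdc1 and Ythdf2, at whose starts in the table no site lay. Each runs 5′ to 3′ on the gene's strand, with 10 bases before the start in lower case and the first 20 bases from the start on in capitals.
Hnrnpc, chr14:52104002-52104031, minus strand: cctcggcggcAGAGGAGCTCGGGGGCCATT
Ythdc1, chr5:86804256-86804285, plus strand: ctccattttaGCGCCGCCCGGCGTCGCCAT
Ythdf2, chr4:132212237-132212266, minus strand: cccttccgcgTGGGTCAGCGACTGTGAGAG

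Relative to the start in the promoter table, 7 bases of the Hnrnpc site lay before it and 133 bases from it on, while all 140 bases lay within the gene span used for the other distances. Neither GGACT nor the shorter GGAC that it contains, which are common forms of the m6A sequence context, was found on either strand of the 57 window bases under the site. GGAC was present in the same stretch of 36.4% of 32851 promoter entries on either strand and GGACT in 11.7%. The remainder of the site lies beyond the window and was not searched. The neighbouring gene Rpgrip1 begins 212 bases from the site, and the lists do not state the strand of a site.

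Counted over genes, 5 of the 10 readers had a site in both lists (Ythdc1, Ythdf2, Ythdf3, Igf2bp2 and Hnrnpc), and 3 had one in list 1 alone (Ythdc2, Igf2bp1 and Hnrnpa2b1). No reader had a site in list 2 alone, although list 2 is the longer one. Of the 6625 genes that had any site, 39.4% had it in both, 23.8% in list 1 alone and 36.8% in list 2 alone. Of the 8 readers with a site, 62.5% had it in both lists. An overlapping site was present in 3 readers (Ythdc1, Ythdf2 and Ythdf3), which is 37.5% of the 8, beside 27.2% of all genes with a site, and 3 of the 5 readers in both lists had one beside 69.2% of all genes in both. With 8 genes these shares were not tested and do not set the readers apart. Of 21900 protein-coding genes 28.9% had any site, a share that includes genes not expressed in epidermis.

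Counted over sites, 5 of the 15 reader sites of list 1 overlapped list 2, which is 33.3% (95% Wilson interval 15.2 to 58.3) beside 36.7% of all sites of list 1. In list 2 the share was 5 of 10 (interval 23.7 to 76.3%) beside 26.8% of all sites. Over both lists together it was 40.0% beside 31.0%. That share counts each overlapping pair in both lists, so no interval is given for it. The intervals cover counting error only, and each of them holds the share over all sites of its list. The overlapping sites came from 3 genes and sites within a gene share their source, so the intervals are too narrow and are no test. The FDR was below 100% at 8 of the 15 reader sites of list 1, beside 40.8% of all its sites, and at 7 of the 10 of list 2, beside 48.5%. Reader sites were longer than the median site, with medians of 211 and 325 bases in list 1 and list 2 beside 183 and 169, and the part of length in the overlap was not tested.

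**Figure D3:**
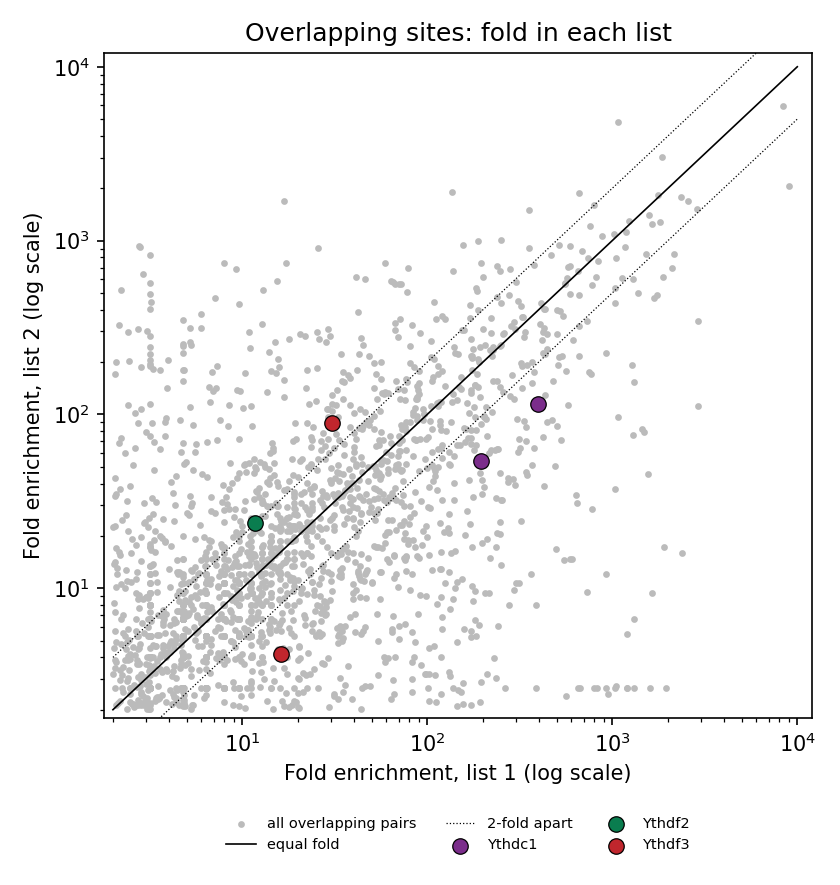
Authors' fold enrichment in list 1 (horizontal) and list 2 (vertical), both on log axes, for the 2202 overlapping pairs of sites (grey) and the 5 pairs in readers (coloured by gene); lines mark equal fold and 2-fold differences. The Ythdc1 pairs lie below the line of equal fold, the Ythdf2 pair above it, and the Ythdf3 pairs on both sides.

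At the shared reader sites the fold differed between the lists by 2.02 to 3.85 times, in both directions. On the log2 scale, list 2 minus list 1 was -1.86 and -1.79 at the sites of Ythdc1, 1.01 at that of Ythdf2, and 1.55 and -1.94 at those of Ythdf3. None of the 5 pairs was within 2-fold, although Ythdf2, at 2.02-fold, was close to it, while 51.8% of all pairs were, and 3 of the 5 were more than 3-fold apart beside 31.7% of all pairs. The largest ratio was 3.85-fold, at the second Ythdf3 site, and 74.4% of all pairs differed by less. Of the shared Ythdc1 sites, the one nearer the 3′ end was the higher in list 1 and in list 2. In Ythdf3 the first site was higher in both lists. With 1 value per list, no difference could be set against an error.

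Over the readers with a site, the median of the highest fold per gene was 21.6 in list 1 (8 genes) and 89.7 in list 2 (5 genes), beside 13.9 and 14.1 over all genes. With the fold at the site of highest score in its place, and ties going to the lower fold, the reader median of list 2 was 23.6 beside 13.6 over all genes. A gene with more sites has more values from which its highest fold is taken, and 72.6% and 65.6% of genes in list 1 and list 2 had 1 site. Over single sites, the reader medians were 12.6 in list 1 and 25.2 in list 2, beside 11.6 and 11.9 over all sites. The readers of list 1 ran from 3.13 in Ythdc2 to 1460.05 in Igf2bp1, and those of list 2 from 4.1 in Hnrnpc to 120.5 in Ythdf2. In list 2 the 3 YTH genes lay between 89.67 and 120.5, above Igf2bp2 with 17.13 and Hnrnpc. In list 1 the YTH genes were spread more widely, from 3.13 through 11.72 in Ythdf2 and 30.52 in Ythdf3 to 399 in Ythdc1.

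The deposited annotation also describes these genes, and the choice by name did not use it. The genes were chosen as known readers, so a match with such an annotation was largely given in advance and is no separate support. The term for binding of RNA that contains m6A was attached to 6 of the genes that had any site, and all 6 were readers of the present set: Ythdc1, Ythdc2, Ythdf2, Ythdf3, Hnrnpa2b1 and Hnrnpc. The IGF2BP genes with a site did not carry it.

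Genes that work with the readers were counted from lists made up by role. Of 11 writers and erasers, 8 had a site, 5 had it in both lists and 4 had an overlapping one. Ranked by the lower fold of the 2 lists at an overlapping site, the first was Rbm15, an adaptor of the writer complex (110.32 and 46.97 in list 1 and list 2). The writer subunit gene Zc3h13 (296.68 and 39.5) and the demethylase gene Fto (133.47 and 7.57) followed, and the FDR of the Fto site in list 2 was 100%. Of 11 other reported readers, 9 had a site, 7 in both lists and 3 overlapping. Rbmx, which encodes the nuclear protein hnRNP G, had 575.05 and 702.41, and Eif3a, a subunit gene of a translation initiation factor, had 1032.65 and 531.01. At its overlapping site Prrc2a had 4.35 and 4.87, with an FDR of 100% in both lists. The highest Prrc2a folds were 19.8 in list 1 and 21.83 in list 2, at other sites.

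Further lists covered the decay machinery used by YTHDF2 and the partners of the other readers. Of 13 genes of CCR4-NOT and decay, 8 had a site, 5 in both lists and 4 overlapping. At its overlapping site Upf1, the helicase of nonsense-mediated decay, had 37.97 and 48.24. At theirs, Cnot2 had 34.57 and 5.68, and the scaffold gene Cnot1 had 5.74 and 4.65. The FDR at these sites was 100% for Cnot2 in list 2 and for Cnot1 in both lists. Another Cnot1 site of list 2 had a fold of 25.45. Of 6 partners of YTHDC1 and YTHDC2, 3 had a site, 2 in both lists and 1 overlapping, in the splicing factor gene Srsf10 (191.96 and 245.07). Of 6 partners and targets of IGF2BP proteins, 4 had a site, 2 in both lists and 1 overlapping. The overlapping site was in Cd44, which encodes a cell-surface hyaluronan receptor (8.8 and 8.55). The highest Cd44 folds were 9.2 in list 1 and 32.88 in list 2. Of 19 other hnRNP family genes, 13 had a site, 5 in both lists and 2 overlapping. These were in Hnrnpab (172.97 and 80.99) and Hnrnpk (11.25 and 4.15, with an FDR of 100% in list 2). The counts with any site stand beside 28.9% of protein-coding genes, a share that includes genes not expressed in epidermis. Of all genes with a site, 39.4% had it in both lists and 27.2% had an overlapping one. Those shares are to be set against the listed genes with a site, not against all listed genes. These counts are descriptions, and no list was tested.

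**Figure D4:**
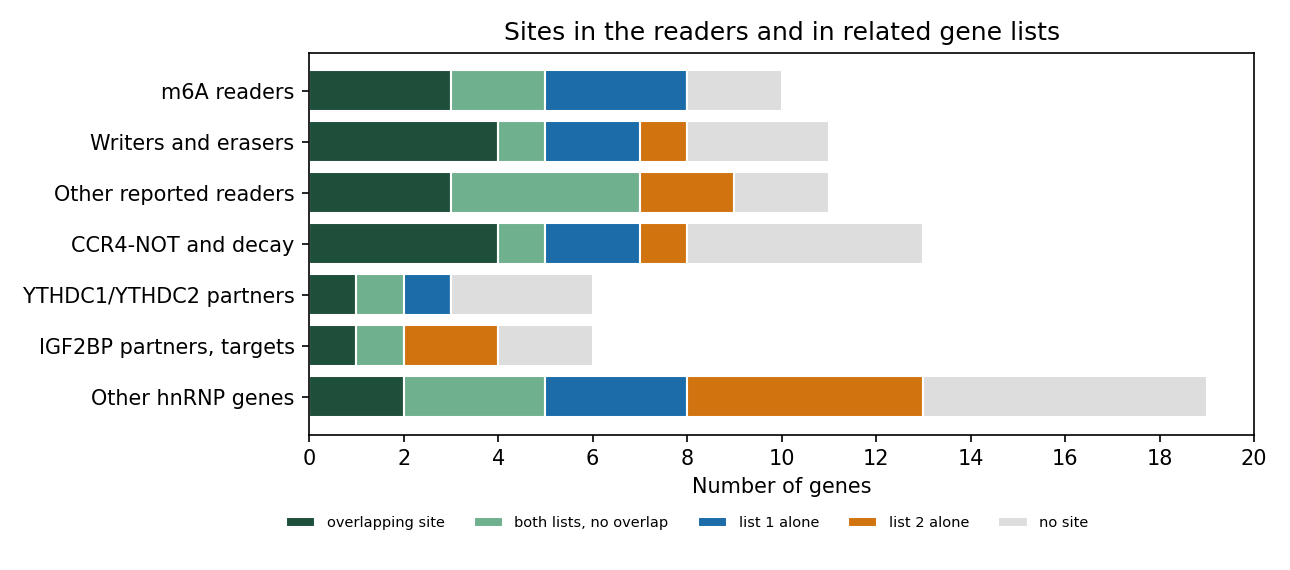
Number of genes (horizontal) in the reader set and in 6 lists of related genes by the lists in which they had a site: an overlapping site, sites in both lists without overlap, list 1 alone, list 2 alone, or none. Overlapping sites are present in 3 of 10 readers, 4 of 11 writers and erasers and 2 of 19 other hnRNP genes.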

How the data were processed

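The lists of methylated sites in mRNA were made by the authors from input and IP libraries of control epidermal keratinocytes. Peaks are named after MACS, a peak caller, in the deposited lists. The submitters' processing notes name the build GRCm38, while the aligner, the version of the caller, its filters and any pooling were not given in the sources used here. Fold enrichment is the authors' deposited ratio of IP over input, the score is the authors' −10 log10 p-value, per the file headers, and the FDR is deposited as a percent. Starts, ends and lengths are in bases, and starts were raised by 1.

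Gene identifiers were matched to a RefSeq gene table (GRCm38.p6), which held those of 97.6% and 97.8% of the sites of list 1 and list 2. Readers were taken by gene name. Sites overlapped when they shared at least 1 base on a chromosome, and for the comparison over all pairs each site entered once, with the largest overlap. The overlap step was tested on simulated data. Named genes are all readers, up to 3 members per list of related genes with the highest lower fold at an overlapping site, and the 3 genes nearest to Ythdc1, each gene represented by its overlapping site with the highest lower fold. The members, the lists of related genes and the alternatives were chosen with earlier results of these data known. Alternatives were a p of 1e-05 or less at each site, sites at or above the median fold of their list, a reciprocal overlap of 50%, each list alone and the fold at the site of highest score. The lists were not treated as replicates, and no count model or test was used. Python 3.11.15, pandas 2.3.3, numpy 2.4.6, scipy 1.17.1 and matplotlib 3.10.9 were used.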

Additional observations from a re-analysis of the deposited data

How the results depend on the processing

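The number of readers with a site in both lists was 5 among sites with a p of 1e-05 or less, where 7 readers had a site in list 1. It was 4 among sites at or above the median fold of their list, where 6 readers had a site in list 1. Over all genes the values are shares of genes with a site, not counts, and they were 34.6% and 30.7%. An overlapping site was present in 3 readers with a reciprocal overlap of 50% and under both of these restrictions. The share of genes with a site, over all genes, was 24.0%, 21.7% and 19.4%. Fewer readers had a site under the 2 restrictions (7 and 6 in list 1), so an unchanged count of 3 is not an unchanged share. The share of reader sites that overlapped, 40.0% over both lists, was 40.0% with a reciprocal overlap of 50%, beside 26.0% of all sites. Among sites with a p of 1e-05 or less it was 34.8% beside 25.9%. For list 1 alone it was 33.3% beside 36.7%, and for list 2 alone 5 of 10 beside 26.8%. When sites within 200 bases were counted as shared, an alternative added after the data were seen, 4 readers and 56.0% of reader sites were shared, beside 28.0% of genes and 32.2% of sites in all. The median of the highest fold per reader in list 1 went from 21.6 to 30.5 among sites with a p of 1e-05 or less, where the median over all genes was 27.1. In list 2 it went from 89.7 to 23.6 when the site with the highest score was taken, with ties going to the lower fold, beside 13.6 over all genes, so the high median of list 2 depended on the choice among sites tied at a score of 3100. For Ythdf2 the difference between the lists was 3.36 on the log2 scale between the strongest sites, which do not overlap, against 1.01 at the overlapping pair. No paired analysis was possible because the lists are not tied to replicate numbers and no result comes from a test. The depth is unknown, so the absence of a site in Ythdf1, Igf2bp3 or either list was not told apart from low coverage.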
